A study of Mus musculus with 2 samples.

Results

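The genes described here are 9 regulators of heart muscle: Gata4, Gata5, Gata6, Nkx2-5, Hand1, Hand2, Zfpm1, Zfpm2 and Isl1. They were taken by symbol, after the version was removed from each gene identifier, and all 9 were found among 43346 Ensembl genes, with 23 of 103639 transcripts. The material was the heart of 1 female C57BL/6J mouse, an adult of 10 weeks with no treatment named. Its poly(A) RNA was read in 2 libraries, both from a single biological replicate, so they are technical replicates of 1 animal. Replicate 2 was produced in 2015, later than replicate 1, per the labels. There is no second condition, and a mean ± SD over the libraries (n = 2) covers technical spread only.

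GATA factors are zinc finger proteins that bind the sequence GATA, and Gata4, Gata5 and Gata6 are the members known from the heart. NKX2-5 is a homeodomain protein, HAND1 and HAND2 are basic helix-loop-helix proteins, and the 3 classes act together on promoters of cardiac muscle genes. ZFPM1 and ZFPM2, also named FOG1 and FOG2, bind the zinc fingers of GATA factors and recruit repressor complexes. ISL1 is a LIM-homeodomain protein of cardiac progenitors and of the sinoatrial node.

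The libraries differed in composition before any of these genes is considered. Mitochondrial genes and their near-identical nuclear copies took 92.8% of TPM (an abundance corrected for transcript length and scaled to a fixed sum in each library) in replicate 1 and 60.9% in replicate 2. Levels are therefore given mainly as nuclear TPM, which is TPM rescaled without those genes. With the copies kept, the mean level over the libraries would be 41.6 in place of 103 for Gata4, 24.2 in place of 73.8 for Gata6, 12.6 in place of 27.8 for Hand2 and 6.55 in place of 19.7 for Zfpm2. The counts left for nuclear genes were 5028154 and 12654724, and their mean GC content was 45.0% in replicate 1 and 50.5% in replicate 2. All 8 cardiomyocyte markers were present at 1 nuclear TPM or more in both libraries, with summed levels of 36350 and 55627 nuclear TPM. Of these sums, Pln alone made up 29346 in replicate 1 and 6039 in replicate 2. The 6 atrial markers summed to 818 and 10525 nuclear TPM, and the 4 ventricular markers to 7762 and 35830.

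A stretch of coding sequence is shown for each FOG gene because GC content moved with the ratio between the libraries, and because Zfpm1, with 247 counts in replicate 2, had none in replicate 1, unlike Zfpm2. Each is the 120 bases at the middle of the coding part, read 5′ to 3′ on the gene's strand from GENCODE release M21 on GRCm38, with G and C in capitals. The window of Zfpm1-201 (chr8:122335635-122335754, plus strand) is 66.7% GC, and that of Zfpm2-201 (chr15:41101786-41101905, plus strand) is 41.7% GC. Each window lies within 1 coding exon. The whole coding parts are 65.1% GC in Zfpm1 and 49.5% in Zfpm2, so the windows differ more than the coding parts do. The coding part of Gata6 is 66.0% GC, above that of Zfpm1, and Gata6 had 715 counts in replicate 1. Over the 7 factors with at least 20 counts, the log2 ratio had a Spearman rho of 0.21 with GC content of the coding part. It was 0.82 with that of the part after it and 0.86 with that of the whole transcript.
Zfpm1: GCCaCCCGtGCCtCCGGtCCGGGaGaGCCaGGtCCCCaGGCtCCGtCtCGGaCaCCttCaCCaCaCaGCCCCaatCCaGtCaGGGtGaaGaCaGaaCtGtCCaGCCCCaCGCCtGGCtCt
Zfpm2: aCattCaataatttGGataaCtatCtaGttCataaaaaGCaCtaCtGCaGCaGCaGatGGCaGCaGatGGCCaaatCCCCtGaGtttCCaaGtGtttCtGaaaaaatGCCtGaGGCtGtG

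Of the 9 genes, 4 were present at 1 nuclear TPM or more in both libraries, namely Gata4, Gata6, Hand2 and Zfpm2. By the deposited values, Nkx2-5 and Zfpm1 reached that level in replicate 2 alone, which gave 6 genes there, and Gata5, Isl1 and Hand1 in neither library. A count of 0 in replicate 1, read as up to 3 counts, allows 1.17 nuclear TPM for Zfpm1 and 1.10 for Hand1. Replicate 1 therefore cannot place these genes below 1. By the deposited posterior means, which give some abundance to transcripts with no count, the mean level was 1.52 nuclear TPM for Hand1 and 1.97 for Isl1, and 6 of the 9 genes, Zfpm1 and Isl1 now among them but not Hand1, reached 1 in both libraries. In whole heart RNA, fewer cells of a type and less RNA per cell cannot be told apart.

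**Figure D1:**
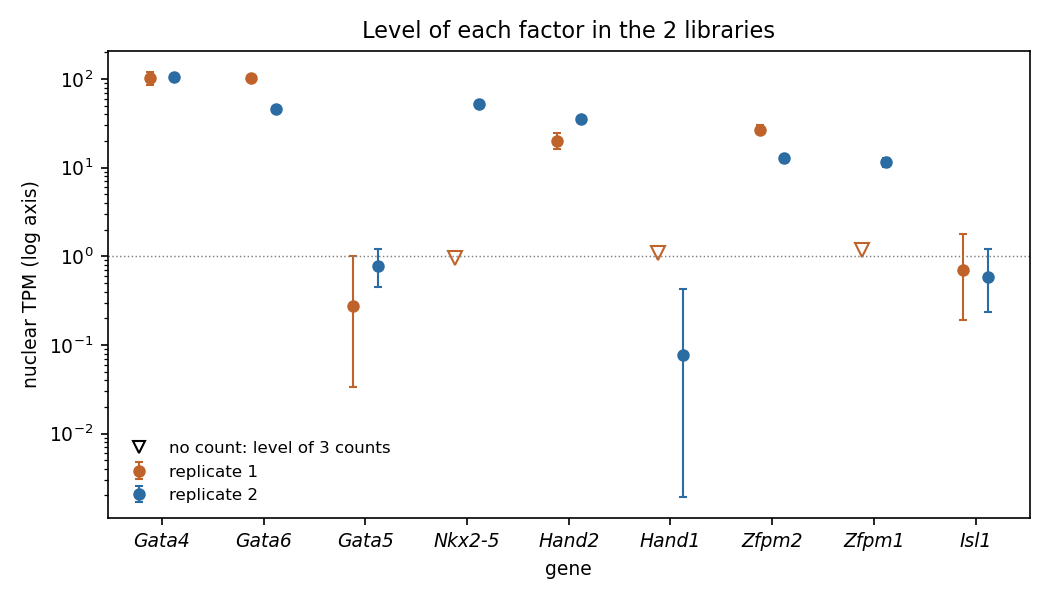
Nuclear TPM of the 9 genes (log axis) in replicate 1 (orange) and replicate 2 (blue). Points are library values, bars are exact Poisson 95% intervals of the counts, which cover counting error only, open triangles mark the level of 3 counts where no count was found, and the dotted line is 1 nuclear TPM. Gata4 lies near 100 in both libraries, whereas Nkx2-5 and Zfpm1 have points in replicate 2 alone.

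Gata4 (chromosome 14, 63198922 to 63271692, minus strand), a GATA factor of heart muscle, had 150 counts in replicate 1 and 1773 in replicate 2. Its deposited TPM was 7.39 and 40.8, and its nuclear TPM was 102 and 104 (mean 103 ± 1.42 SD, n = 2). The levels per length were thus nearly equal in the libraries, but the counts were not: as CPM over nuclear genes, which is not corrected for length, Gata4 had 29.8 in replicate 1 and 140 in replicate 2. The effective length behind the TPM, as deposited, was 626 bases in replicate 1 and 2246 in replicate 2, and the counts were assigned to different transcripts. Over all its transcripts, the TMM-scaled ratio (TMM normalises by the trimmed mean of gene ratios) was 4.27-fold higher in replicate 2 (95% interval 3.61 to 5.07).

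Most Gata4 abundance in replicate 1 was assigned to Gata4-206, a transcript of 599 bases with 2 exons and 34 annotated coding bases. It ends within the first coding exon, upstream of the exons that encode the zinc fingers. Gata4-206 took 87.4 estimated counts in replicate 1, which was 88.5% of the gene's abundance after length correction, and 0 in replicate 2. Gata4-203 led in replicate 2 with 986 counts and 56.3% of abundance, against 58.9 counts and 11.1% in replicate 1. It has 2407 bases and 708 coding bases, and starts from an internal first exon. The full-length forms Gata4-201 and Gata4-202 had 0 and 3.69 counts in replicate 1 and 323 and 411 in replicate 2.

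The full-length forms are printed at the junction of the second and the third exon (chr14:63204732-63240559, minus strand, from the first to the last base shown, introns included), since they differ there by 3 coding bases, in capitals, and carried similar counts in replicate 2. The annotated coding part runs on through these bases, and lower case marks sequence that both share (GENCODE release M21, GRCm38).
Gata4-201: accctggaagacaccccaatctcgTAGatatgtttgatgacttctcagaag
Gata4-202: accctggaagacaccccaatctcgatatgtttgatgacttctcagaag

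Summed over the 3 transcripts that hold the zinc finger exons (Gata4-201 to Gata4-203), a grouping made after the values were seen, Gata4 had 62.6 counts in replicate 1 and 1719 in replicate 2. Their level was 11.9 and 89.1 nuclear TPM. The 3 short 5′ transcripts (Gata4-204 to Gata4-206) took 58.3% of the counts and 88.4% of the TPM of Gata4 in replicate 1, and 3.04% and 14.6% in replicate 2. Scaled by TMM, the zinc finger transcripts were 9.92-fold higher in replicate 2 (7.66 to 12.9). The short transcripts were 4.50-fold higher in replicate 1 (3.14 to 6.39). The reason for this assignment was not tested.

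**Figure D2:**
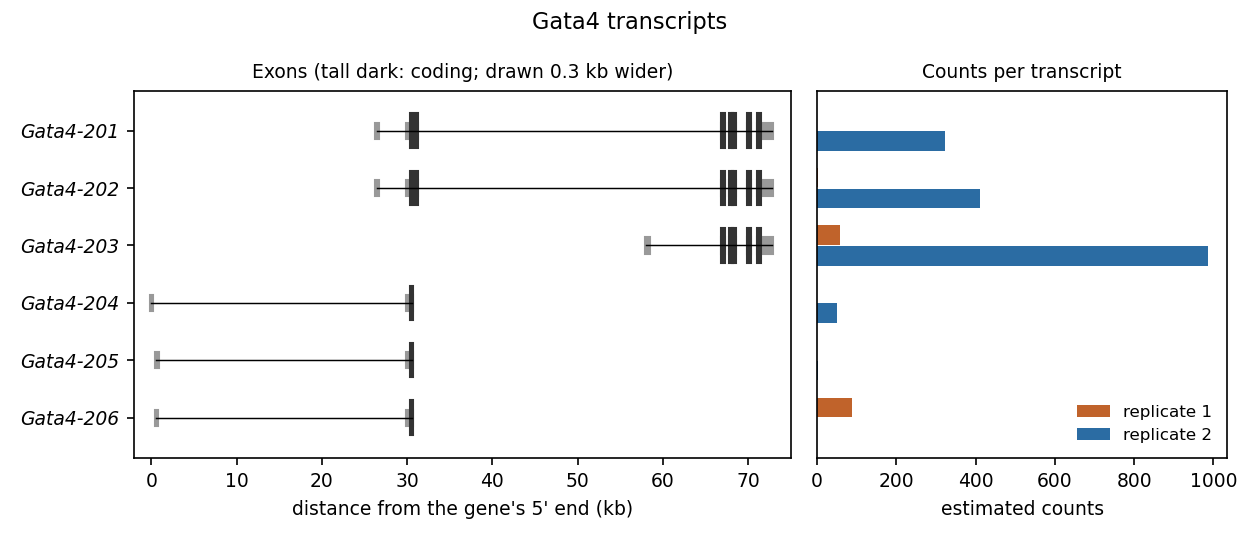
Left, exons of the 6 Gata4 transcripts by distance from the gene's 5′ end in kb, with coding parts tall and dark. Right, estimated counts per transcript in replicate 1 (orange) and replicate 2 (blue). Replicate 1 counts sit mainly on the short Gata4-206 and on Gata4-203, and replicate 2 counts on Gata4-203, Gata4-202 and Gata4-201.

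Gata6 (33.6 kb gene, plus strand), the second GATA factor of the adult heart, had 715 counts in replicate 1 and 1047 in replicate 2. Its nuclear TPM was 102 and 46.1 (mean 73.8 ± 39.2 SD, n = 2). Replicate 1 was the higher library by 1.89-fold after TMM scaling (1.72 to 2.08), below the 2-fold limit used here. That direction flips when the libraries are scaled by all counts, mitochondrial ones included (log2 ratio of replicate 2 over replicate 1 of -0.92 against 0.76). A single transcript is listed for Gata6, so its length correction did not change between the libraries. An RNA on the opposite strand that overlaps its 5′ end, 1010001N08Rik, had 30 and 88 counts. The sources do not state strand-specific counting, and reads from the overlap cannot be assigned to either gene with certainty.

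Gata5 (chromosome 2, 180325133 to 180334699, minus strand), a GATA factor known from endocardium, had 2 counts in replicate 1 and 18 in replicate 2. These are 0.277 and 0.767 nuclear TPM, and the antisense gene Gata5os had no count in either library. Gata6 was 367-fold (101 to 3039) above Gata5 per length in replicate 1 and 59.8-fold (37.6 to 101) in replicate 2.

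Among the 6 GATA genes, Gata4 carried 48.3% of summed TPM in replicate 1 and 64.1% in replicate 2 (mean 56.2% ± 11.2 SD, n = 2). Gata6 carried 47.9% and 28.3%. Gata2, a factor of blood and endothelial cells, had 50 and 252 counts and carried 3.40% and 6.77%. Gata3, a T-cell factor, had 3 and 6 counts, and Gata1, the erythroid factor, had none in either library. Endothelial markers were at 1 nuclear TPM or more in both libraries for 8 of 8 genes, with sums of 1246 and 1789. Erythroid and megakaryocyte markers summed to 1028 and 12874 nuclear TPM, nearly all globin, with Epor, Gp1ba, Gp9, Itga2b and Klf1 at 0 in replicate 1. The part of these cells in the Gata2 level was not tested.

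Within replicate 1, Gata4 and Gata6 could not be separated per length (Gata4 1.01-fold of Gata6, 0.840 to 1.20). This equality rests on the length given to Gata4: with the zinc finger transcripts alone, Gata6 was 8.52-fold (6.54 to 11.1) above Gata4. In replicate 2, Gata4 was 2.27-fold (2.10 to 2.45) above Gata6, and 1.93-fold (1.79 to 2.09) with the zinc finger transcripts alone. By those transcripts the share of Gata4 in the GATA family was 9.82% in replicate 1 and 60.4% in replicate 2, so the order of the 2 genes differed between the libraries.

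**Figure D3:**
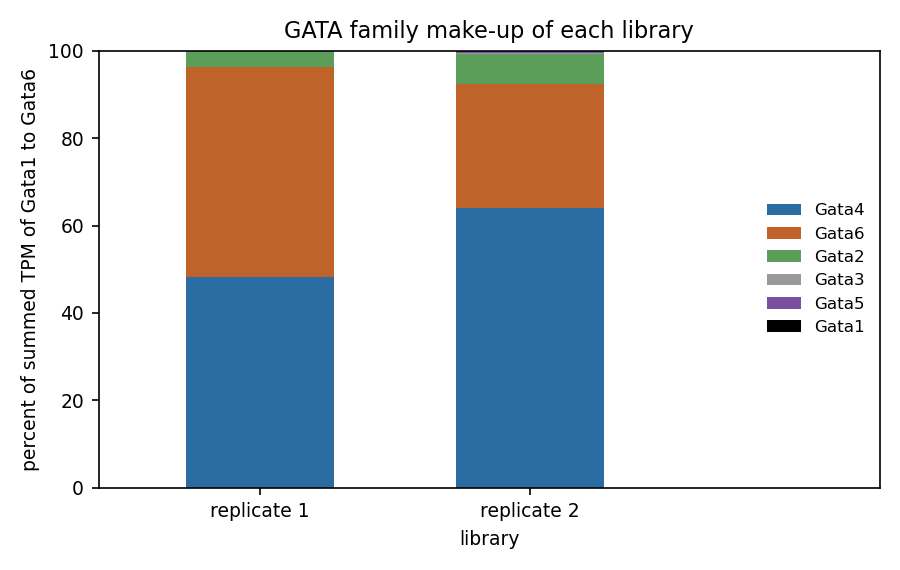
Percent of the summed TPM of Gata1 to Gata6 carried by each gene in replicate 1 and replicate 2, all annotated transcripts included. Gata4 takes 48.3% and 64.1% and Gata6 47.9% and 28.3%, and the remaining genes take the thin upper bands.

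Nkx2-5 (chromosome 17, 26838664 to 26845009, minus strand), the NK2 homeobox factor of heart muscle, had 0 counts in replicate 1 and 525 (exact Poisson 95% interval 481 to 572) in replicate 2. Its level in replicate 2 was 51.9 nuclear TPM. A count of 0 in replicate 1 allows up to 3 counts, or 0.958 nuclear TPM. On that limit, with the replicate 2 count taken as exact, Nkx2-5 was at least 54.2-fold higher in replicate 2 in nuclear TPM. In TMM-scaled counts it was at least 63.2-fold higher, while the exact 95% interval, which covers the error of both counts, starts lower, at 51.2-fold. Of 4446 genes with 525 or more counts in replicate 2, 15 had none in replicate 1. Those genes were picked by replicate 2, where Nkx2-5 was high, and are of any GC content. Among the tenth of tested genes highest in GC content, which holds Nkx2-5, 25.8% had none in replicate 1, whatever their count in replicate 2. Cardiomyocyte markers were present in the library with no Nkx2-5 count, with Myh6 at 550 nuclear TPM and Pln at 29346. In replicate 2 these were at 10724 and 6039. Of the 8 cardiomyocyte markers, 5 were at least 2-fold higher in replicate 2, 1 (Pln) lower and 2 between, with a median log2 ratio of 2.67. Among all genes tested, 39.0% were higher and 27.3% lower. The other members of the NK2 family, Nkx2-1, Nkx2-2, Nkx2-3, Nkx2-4, Nkx2-6 and Nkx2-9, had no count in replicate 1, and Nkx2-9 had 1 in replicate 2.

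Hand2 (chromosome 8, 57320983 to 57324633, plus strand), the HAND factor of the right ventricle in the embryo, had 96 counts in replicate 1 and 549 in replicate 2. Its nuclear TPM was 20.1 and 35.5 (mean 27.8 ± 10.9 SD, n = 2). The TMM-scaled ratio was 2.06-fold higher in replicate 2 (1.66 to 2.59), and the interval reaches below the 2-fold limit. Hand2os1, an RNA of the opposite strand whose gene overlaps most of Hand2, had 244 and 599 counts and 199 and 168 nuclear TPM. Its level per length was above that of Hand2 in both libraries. Without stated use of strand, Hand2 reads and Hand2os1 reads cannot be told apart where the genes overlap.

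Hand1 (chromosome 11, 57828705 to 57832818, minus strand), the HAND factor of the left ventricle in the embryo, had no count in replicate 1 and 1 in replicate 2. Hand2 was at least 18.3-fold above Hand1 per length in replicate 1. In replicate 2 it was 434-fold above, with an interval of 77.6 to 17170 that reflects the single Hand1 count.

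Zfpm2 (chromosome 15, 40655035 to 41104592, plus strand), which encodes FOG2, the partner of GATA4 in heart muscle, had 300 counts in replicate 1 and 461 in replicate 2. Its nuclear TPM was 26.7 and 12.7 (mean 19.7 ± 9.90 SD, n = 2). Replicate 1 was the higher library by 1.80-fold (1.55 to 2.09), under the 2-fold limit, and this direction flips with scaling by all counts (log2 ratio -0.85 against 0.83). Gata6 was 3.79-fold (3.31 to 4.36) above Zfpm2 per length in replicate 1 and 3.62-fold (3.24 to 4.04) in replicate 2, intervals that overlap.

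Zfpm1 (chromosome 8, 122282141 to 122337251, plus strand), which encodes FOG1, the partner of GATA1 in blood cells, had 0 counts in replicate 1 and 247 (217 to 280) in replicate 2. Its level in replicate 2 was 11.5 nuclear TPM, with 86.1% of it on the transcript Zfpm1-201. A count of 0 in replicate 1 allows up to 3 counts, or 1.17 nuclear TPM. On that limit it was at least 9.82-fold higher in replicate 2 in nuclear TPM, and at least 29.7-fold higher in TMM-scaled counts, which use no transcript length. Of 7201 genes with 247 or more counts in replicate 2, 69 had none in replicate 1 (0.958%). Those genes too were picked by replicate 2 and are of any GC content. In the tenth of tested genes highest in GC content, which also holds Zfpm1, the share was 25.8%. There too, genes with none in replicate 1 were tested only through replicate 2. The FOG genes could not be separated in replicate 2 (Zfpm2 1.11-fold of Zfpm1, 0.949 to 1.30), whereas in replicate 1 Zfpm2 was at least 22.9-fold above Zfpm1. Gm20388, a gene model of 4.43 Mb on the same strand that spans Zfpm1, had 46 and 702 counts, so the assignment of reads to Zfpm1 is uncertain. Of the 6 tested erythroid and megakaryocyte markers, 5 were at least 2-fold higher in replicate 2 and 1, Ppbp, was lower. Of all genes tested, 39.0% were higher and 27.3% lower. The part of these markers' cells in the Zfpm1 level was not tested. The median log2 ratio was 3.89 for the erythroid and megakaryocyte markers, 3.49 for the atrial markers and 3.61 for the macrophage markers, beside 0.21 for all genes tested. High medians were not particular to these lists: ventricular markers had 3.56, mural 3.18, cardiomyocyte 2.67 and endothelial 1.54. Epicardial markers had 0.31, fibroblast -0.32 and sinoatrial node -0.53. The autonomic neuron and lymphoid lists, with 2 tested genes each, had 2.78 and 0.08.

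Isl1 (chromosome 13, 116298281 to 116309689, minus strand) had 4 counts in replicate 1 and 7 in replicate 2, or 0.693 and 0.588 nuclear TPM. The 8 sinoatrial node markers, Isl1 among them, summed to 37.96 and 22.9 nuclear TPM, with Tbx3 at 10.4 and 8.62, Tbx18 at 11.8 and 3.43 and Hcn4 at 1.66 and 4.94. Of the 8 autonomic neuron markers, 6 had no count in replicate 1, and the list summed to 12.2 and 11.5 nuclear TPM. Both sums lay far below those of the atrial and ventricular lists.

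In the order of levels per length, replicate 1 ran Gata4 and Gata6, then Zfpm2, Hand2, Isl1 and Gata5, with Nkx2-5, Hand1 and Zfpm1 at 0. Zfpm2 was 1.34-fold (1.06 to 1.70) above Hand2, and Isl1 and Gata5 could not be separated. Replicate 2 ran Gata4, Nkx2-5, Gata6, Hand2, Zfpm2, Zfpm1, Gata5, Isl1 and Hand1. Gata4 was 2.01-fold (1.82 to 2.22) above Nkx2-5, Nkx2-5 was 1.13-fold (1.01 to 1.25) above Gata6, and Gata6 was 1.30-fold (1.17 to 1.44) above Hand2. Hand2 was 2.78-fold (2.46 to 3.16) above Zfpm2, Zfpm1 was 14.9-fold (9.23 to 25.5) above Gata5, and neighbours among the last 3 genes could not be separated. These exact binomial intervals cover counting error only.

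Between the libraries, 7 of the 9 genes had the 20 counts required over both. Of these, 5 were at least 2-fold higher in replicate 2 (Gata4, Gata5, Nkx2-5, Hand2 and Zfpm1), beside 39.0% of the 13182 genes tested. None was at least 2-fold lower, beside 27.3%, and Gata6 and Zfpm2 lay between the limits. Nkx2-5 and Zfpm1 passed the count filter only through replicate 2, where they were high, and Gata5 passed with 18 of its 20 counts there, so this count describes the libraries and is no support for a difference. For Gata5 the interval of 0.778-fold to 28.9-fold includes equality. With scaling by all counts, 66.0% of genes were at least 2-fold higher and 1.11% at least 2-fold lower, and the median log2 ratio of all genes was 1.89 in place of 0.21. A ratio compares these libraries and no condition, since each side is 1 library.

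GC content moved with the ratios of all genes. Over 13155 tested genes the log2 ratio and the GC content of the transcripts had a Pearson r of 0.85 and a Spearman rho of 0.90, a description across genes that share both libraries. Between the tenth of genes lowest in GC content and the tenth highest in it, the median log2 ratio of all genes went from -2.04 to 4.57, and the share with no count in replicate 1 from 0.0760% to 25.8%. Nkx2-5 (67.1% GC) and Zfpm1 (66.1%) are in the tenth highest in GC content, as is Hand2 (59.3%). Gata5 (56.9%) and Gata6 (56.5%) are in the tenth below it, Gata4 (54.6%) in the next, and Zfpm2 (48.0%) is below the median GC content of 50.04%.

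The factors did not all lie near genes of their own GC content. In the tenth that holds Gata6, the median log2 ratio was 3.44 and 93.1% of genes were at least 2-fold higher in replicate 2. Gata6, at -0.92, had 6 of 1315 genes below it. Hand2, at 1.04, had 50 of 1316 genes below it in the tenth it belongs to, where the median was 4.57. Gata4, at 2.09 beside a median of 2.44, and Zfpm2, at -0.85 beside -0.51, lay nearer the middle of theirs. When the trend with GC content was removed, the log2 ratio became -0.35 for Gata4, -1.85 for Gata5 and -3.21 for Hand2, each reversed in sign, and under that setting 18.9% of all genes were at least 2-fold higher in replicate 2 and 10.0% lower. It was 3.65 for Nkx2-5 and 2.57 for Zfpm1, fitted values that depend on the 0.5 counts added to a count of 0. The part of GC content in any single ratio was not tested.

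**Figure D4:**
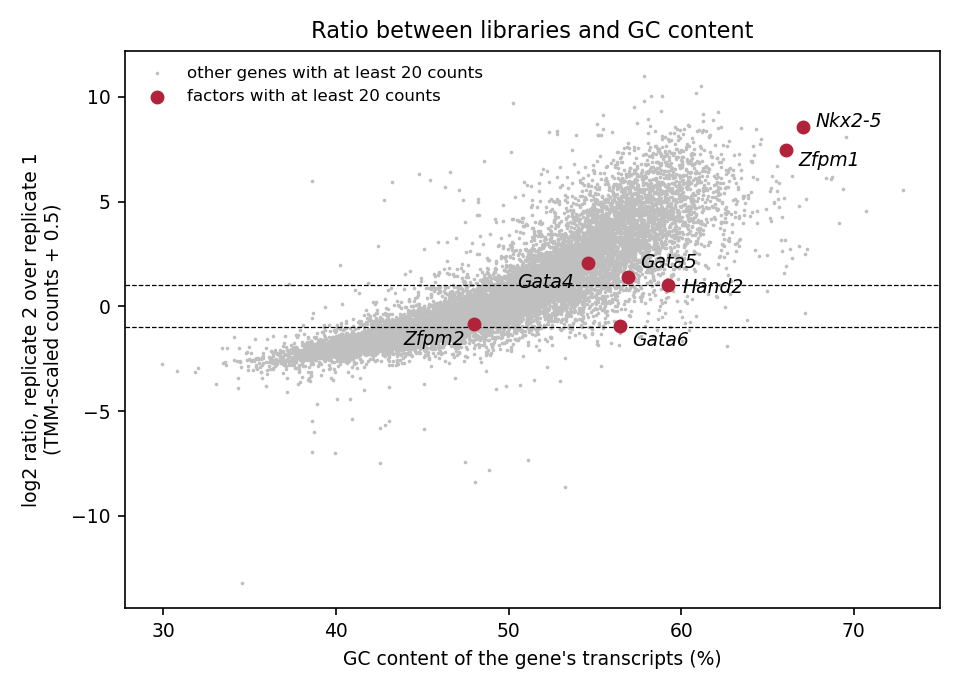
GC content of each gene's transcripts (percent) against the log2 ratio of replicate 2 over replicate 1, for all genes with at least 20 counts (grey) and the 7 tested factors (red). Dashed lines mark 2-fold. Nkx2-5 and Zfpm1, drawn at fitted values of 8.57 and 7.48 with no count in replicate 1, lie at the upper right, and Gata6 at -0.92 lies under most genes of like GC content.

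Genes that work with these factors were compared through lists, each to be read beside the 39.0% of all tested genes that were at least 2-fold higher in replicate 2, the 27.3% that were lower and their median log2 ratio of 0.21. The list of FOG and its complex partners, which includes Zfpm1 and Zfpm2, had 18 genes, of which 8, a share near that of all genes, were at least 2-fold higher in replicate 2, 2 lower and 8 between, with a median of 0.73 that was the same with genes at 0 set to their bounds. Rbbp7, a histone-binding subunit, had 448 and 152 nuclear TPM, the deacetylase Hdac2 had 331 and 70.2, and the methyl-DNA binding protein Mbd2 had 154 and 120. Of 10 partners of HAND proteins, 5 were higher, 3 lower and 2 between, with a median of 0.02. The LIM protein Fhl2 had 1104 and 2038 nuclear TPM, the E protein Tcf4 had 129 and 41.8, and Id1, an inhibitor of E proteins, had 46.8 and 94.7.

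Of 6 tested LIM-homeodomain genes and LIM cofactors, 1 was at least 2-fold higher in replicate 2, 1 lower and 4 between, with a median of -0.59. Lmo4 had 101 and 41.0 nuclear TPM, the adaptor Ldb1 had 25.9 and 74.9 and its stabiliser Ssbp3 had 48.8 and 31.2, while Isl2 and Lhx2 had no count in either library. These cofactors lay well above Isl1, at 0.693 and 0.588. Among 26 tested other cardiac transcription factors, 6 were higher, 10 lower and 10 between, with a median of -0.61. Mef2a had 423 and 103 nuclear TPM, the homeodomain protein Hopx had 150 and 334, and the T-box factor Tbx20 had 212 and 51.0.

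All 21 target genes, cardiac genes known to be regulated by GATA4, NKX2-5, HAND2 or their partners, were at 1 nuclear TPM or more in both libraries. Of these, 13 were at least 2-fold higher in replicate 2, 3 lower and 5 between, with a median of 1.92, beside 39.0% of all genes higher and 27.3% lower. Pln, the inhibitor of the calcium pump, had 29346 and 6039 nuclear TPM, the ventricular light chain Myl2 had 7563 and 25854, and the pump Atp2a2 had 12003 and 8490. These 3 are the highest of the list; others, such as Ccnd2 at 56.5 and 48.2 and Hcn4 at 1.66 and 4.94, lay below Gata4 at 102 and 104 nuclear TPM. In replicate 1 the target genes were present and Nkx2-5 had no count. Replicate 2, a library of the same heart, had 525 Nkx2-5 counts, so the count of 0 does not show absence of Nkx2-5 from the tissue.

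**Figure D5:**
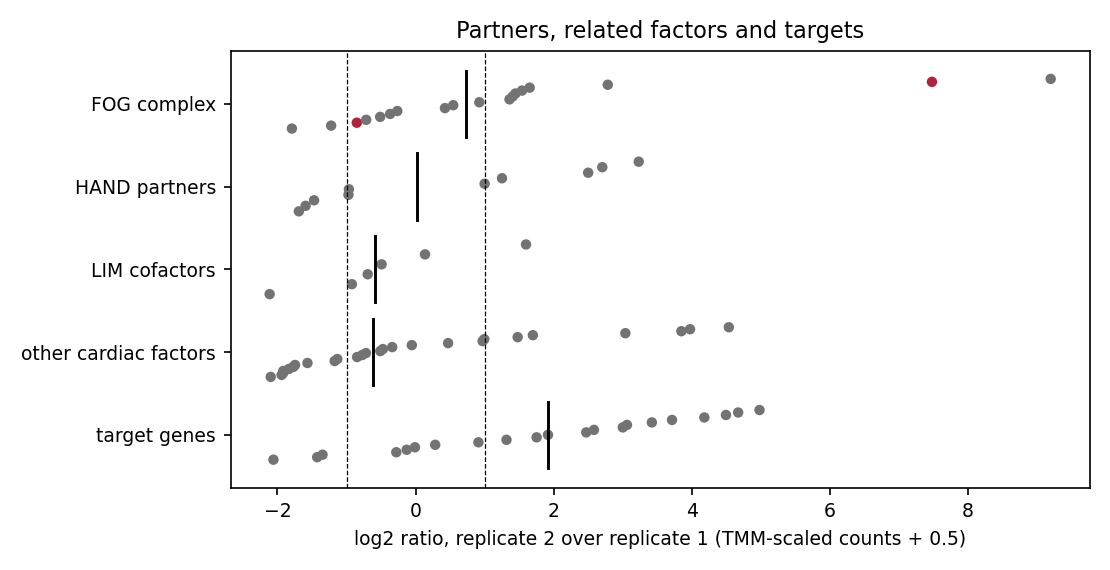
Log2 ratio of replicate 2 over replicate 1 for the tested genes of 5 lists, 1 point per gene, with Zfpm1 and Zfpm2 in red, the list median as a black bar and dashed lines at 2-fold. The medians run from -0.61 for other cardiac factors to 1.92 for target genes, and every list has genes on both sides of 0.

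By nearness of log2(nuclear TPM + 0.1) over the libraries, among 64 genes of these lists, the levels most like those of Gata4 were those of Mbd2 (distance 0.62) and the TEA-domain factor Tead1 (0.85). These distances take all Gata4 transcripts. The zinc finger transcripts alone were at 11.9 and 89.1 nuclear TPM, beside 154 and 120 for Mbd2. Nearest to Hand2 were the T-box factor Tbx5 (0.39), at 16.9 and 28.9 nuclear TPM, and Mta2 (0.44). Nearest to Nkx2-5 was Mbd3 (0.84), with 0 counts in replicate 1 and 815 in replicate 2, followed by the Iroquois factor Irx4 (3.75), with 6 and 418 counts. The distances from Nkx2-5 depend on the 0.1 added to a level of 0: with the level of 3 counts in its place, they were 0.93 for Mbd3 and 1.09 for Irx4. Likeness over 2 libraries of 1 animal is a description of those levels.

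Transcript choice could be followed in few of the factors. Of 4 genes with at least 20 counts in each library, 3 had the same leading transcript in both, but Gata6, Hand2 and Zfpm2 have only 1 transcript in the deposited tables and could not differ. Gata4 led with Gata4-206 in replicate 1 and Gata4-203 in replicate 2.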

How the data were processed

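Poly(A) RNA of 1 mouse heart was measured in 2 technical libraries, with totals of 22775991 and 19685821 counts. Expected counts (estimates that need not be whole), TPM, FPKM and the percent of a gene's abundance on each transcript are as deposited by the authors, per the file headers. Assembly mm10 and annotation M4 are named in the deposited file descriptions. The aligner, the estimating program and any use of strand remain not given in the sources used here. Extraction used a kit made for lipid tissue, per the labels. Symbols, coordinates (1-based), transcript structure and GC content come from GENCODE M21 on GRCm38, which is mm10. The GC content of a gene averages its transcripts by TPM.

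Nuclear TPM leaves out 37 mitochondrial genes and 11 nuclear copies (blastn 2.17.0, at least 95% identity over 90% of length). Counts were rounded, scaled by TMM in edgeR 4.0.16 (R 4.3.3) and compared as log2 ratios with 0.5 counts added, for genes with at least 20 counts over both libraries. Called means at least 2-fold; no p-value was computed, since each side is 1 library. Intervals are 95%, exact Poisson for counts and exact binomial for ratios; they cover counting error only, as reads are not independent molecules. A count of 0 was read as up to 3 counts, and folds on that limit leave out the error of the other count. The GC trend was removed as the median in 50 bins. The ratio step was run on simulated Poisson counts with planted fold changes and no trend with GC content. That simulation cannot speak to ratios under the GC trend of these libraries. DESeq2 1.42.0 gave another scaling, and statistics ran in scipy 1.17.1 (Python 3.11.15).

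The members, lists and rules were chosen with earlier results of these data known. Named genes are all members, the 3 other genes of highest mean nuclear TPM in each list, all GATA and NK2 genes, overlapping RNAs, the 2 genes nearest in level to Gata4, Nkx2-5 and Hand2, and for markers list sums with their highest genes. Outside that rule, genes at 0, Myh6, Hcn4, Ppbp, Ccnd2, Tcf3 and Tcf12 were chosen after their values were seen. Protein sequences were not used here.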

Additional observations from a re-analysis of the deposited data

How the results depend on the processing

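Other scalings, filters, added counts and abundance estimates were tried. The choice of Gata4 zinc finger transcripts alone and a level of 3 counts in place of 0 for likeness were added after seeing the data. So were the place of a factor among genes of like GC content and the relation of the ratio to GC content of transcript parts. With the GC trend removed, 2 factors in place of 5 were at least 2-fold higher in replicate 2 and 3 in place of 0 were lower, beside 18.9% and 10.0% of all genes; Gata4 (log2 ratio -0.35), Gata5 (-1.85) and Hand2 (-3.21) reversed, and Gata6 moved from -0.92 to -3.92. With a 4-fold limit 3 were higher, and with a 1.5-fold limit 2 were lower. The shares of all genes past those limits were not computed, so these counts have no background and say nothing particular about the factors. Gata5 fell under the 2-fold limit with 2 counts added (0.85). Without a limit on counts, 5 of 6 factors had the same leading transcript. The Gata4 share of the GATA family, 56.2%, was 36.8% by counts not corrected for length and 35.1% with zinc finger transcripts alone. Over leaving out each library it ranged from 48.3% to 64.1%, and the factors at 1 nuclear TPM or more from 4 to 6. By posterior means, Zfpm2 fell below Zfpm1 in replicate 2 (log2 ratio -0.26 against 0.15). The cause of these changes was not tested, except that limits and transcript sets differ by construction. No paired analysis was possible because there is 1 group. Depth limits Gata5, Isl1 and Hand1, with 20, 11 and 1 counts in all.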

Other observations

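Promoters of 5 factors, Gata5, Hand2, Zfpm1, Isl1 and Nkx2-5, were matched by symbol in a RefSeq table on GRCm38 of 300 bases around each gene's start. The letters GATA, searched on both strands, occurred at 2 places in the Hand2 window, 2 in the Isl1 window and 1 in the Nkx2-5 window, and were not in those of Gata5 and Zfpm1. Of 32851 promoters of that length, 57.9% hold them. The E-box letters CANNTG occurred in 4 of the 5 windows, all but that of Zfpm1, and in 72.3% of promoters. The NK2 letters TNAAGTG, on both strands, were in none of the 5 windows and in 11.5% of promoters. A match is a description of letters and not a site in use.

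The E-protein partners of HAND factors differed among themselves between the libraries: Tcf3 (61.0% GC) had 20 and 321 counts, Tcf12 (45.0% GC) had 434 and 613, and Tcf4 (43.1% GC) had 1862 and 1598. These counts are not scaled for depth. After TMM scaling, the log2 ratio of replicate 2 over replicate 1 was 2.50 for Tcf3, -0.97 for Tcf12 and -1.69 for Tcf4.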
